A study of Mus musculus with 6 samples.

Results

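The transcription factor NRF2 (gene symbol Nfe2l2), 6 genes that it is known to induce and 3 enzymes that clear superoxide and hydrogen peroxide were examined in liver endothelial cells (ECs) of young and aged mice. The 10 genes were fixed by name as Nfe2l2, Hmox1, Nqo1, Gclc, Gclm, Txnrd1, Srxn1, Sod1, Sod2 and Cat, with no threshold on a measured value. They were chosen with earlier results of these data known. All 10 were among the 24421 gene symbols of the count table, and all 10 were among the 14612 genes that passed a filter on low counts (a CPM, that is, counts scaled to a common library size, of 0.5 or more in 1 sample or more). ECs were sorted from liver as CD31+CD45- cells, that is, cells with an endothelial surface protein and without the pan-leukocyte protein CD45. They came from wild-type C57BL/6J mice, 3 at 10 weeks (young replicates 1, 2 and 3) and 1 each at 127, 131 and 136 weeks (the aged group), and the labels name no treatment for either group. The methods give the mice as female and state that mice with visible tumours or an enlarged liver or spleen were left out.

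NRF2 is a transcription factor that the adaptor protein KEAP1 hands over for degradation while a cell is unstressed. Oxidants and electrophiles modify KEAP1, and NRF2 then accumulates, pairs with a small MAF protein and binds antioxidant response elements near its target genes. The targets examined here detoxify quinones (Nqo1), break down haem (Hmox1), make glutathione (Gclc and Gclm) and keep the thioredoxin and peroxiredoxin systems reduced (Txnrd1 and Srxn1). The superoxide dismutases of the cytosol (Sod1) and of mitochondria (Sod2) turn superoxide into hydrogen peroxide, which the peroxisomal enzyme catalase (Cat) splits into water and oxygen. In the liver sinusoid, ECs face blood from the gut and are exposed to such reactive compounds. Nfe2l2 mRNA is only part of this control, since NRF2 is regulated mostly as a protein, which was not measured here.

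Total counts were between 23001556 and 31651817 per sample, so that 3 counts corresponded to between 0.0948 and 0.130 CPM, well below the level of each of the 10 genes. Lars2 and Rn45s, under which reads of ribosomal RNA are gathered, took 4.68% to 5.53% of the counts of 4 libraries but 1.29% of those of young replicate 3 and 0.960% of those at 127 weeks. For the 10 genes, the difference with age is therefore also given, without a test, inside these library clusters, with young replicates 1 and 2 set against 131 and 136 weeks and young replicate 3 against 127 weeks. All 10 endothelial markers were detected. Their summed CPM was 22108 to 24461 in young and 11811 to 17498 in aged samples, and 8 of them were lower and 2 higher in aged samples. The largest fall was that of the sinusoidal scavenger receptor gene Stab2, at 2901 to 3198 in young and 504 to 1759 in aged samples. The 2 higher were the pan-endothelial gene Pecam1, with a log2 fold change of 0.01, and Lyve1, with 0.58. Lyve1 was 391 to 670 CPM in young samples and 660, 223 and 1506 CPM at 127, 131 and 136 weeks. All 6 pan-leukocyte markers had higher mean levels in aged samples, with a summed CPM of 14.9 to 24.9 in young samples, 51.0 at 127 weeks, 16.5 at 131 weeks and 197 at 136 weeks. In sorted bulk RNA, fewer cells of a type and less RNA per cell cannot be told apart.

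The promoter sequences of the genes whose levels are described below are shown first, since NRF2 acts through a short core motif, TGACNNNGC. RefSeq promoter windows (build GRCm38.p6, from 250 bases before to 50 bases after the annotated start) were at hand for 8 of the 10 genes, in 10 windows, and not for Hmox1 or Gclc. The motif, searched on both strands and with no other motif, occurred in 5 of the 10 windows, against 12.4% of all 32851 windows of this length. These windows belonged to 5 of the 8 genes (Nfe2l2, Gclm, Srxn1, Txnrd1 and Sod1). The share of all genes with a match was not computed. Stretches before the start are given 5′ to 3′ on the gene's strand with the match in capitals. The match of Srxn1 did not lie wholly before the annotated start and is not shown. Positions are those of the whole printed stretch. The stretch of Nfe2l2 (chr2:75704869-75704913, minus strand) held the match on the gene's own strand. The stretches of Gclm (chr3:122245397-122245457, plus strand), Txnrd1 (chr10:82859088-82859148, plus strand) and Sod1 (chr16:90220680-90220740, plus strand) held it on the opposite strand, so that the capitals show its reverse complement. Nqo1 (chr8:107403206-107403284, minus strand) is shown in lower case because it had the largest change of the 10 genes and no match in its window.
Nfe2l2: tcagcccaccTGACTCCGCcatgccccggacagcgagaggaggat
Gclm: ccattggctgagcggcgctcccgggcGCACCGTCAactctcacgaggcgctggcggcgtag
Txnrd1: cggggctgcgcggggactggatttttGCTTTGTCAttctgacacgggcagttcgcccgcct
Sod1: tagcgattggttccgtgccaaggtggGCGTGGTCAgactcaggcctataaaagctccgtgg
Nqo1: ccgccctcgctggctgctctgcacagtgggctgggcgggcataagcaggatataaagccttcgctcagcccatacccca
The first base of the match lay 240 bases before the annotated start in Nfe2l2, 134 in Gclm, 92 in Txnrd1 and 56 in Sod1. Txnrd1 had 3 windows, of which 1 held the match. A match of letters is not a shown binding site, and windows without one (Nqo1, Sod2 and Cat) may have elements outside these 300 bases.

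The comparison of aged with young ECs asks whether the mRNA of this defence system differs with age. Nqo1 and Txnrd1 were higher in each aged sample than in each young sample, about 2.34-fold and 1.78-fold on the mean, and Cat was lower in each aged sample. The ages overlapped for Nfe2l2 itself, Hmox1, Srxn1, both glutathione synthesis genes and Sod1, and their 95% intervals included 0. Sod2 was higher in each aged sample, but its 95% interval also included 0. By the quasi-likelihood test of edgeR with Benjamini-Hochberg adjustment over all 14612 genes, none of the 10 genes was called (a log2 fold change past 1 in size with an adjusted p under 0.05), and the call rate over all genes was also 0%. The smallest adjusted p of any gene in this test was 0.0735, and that of the 10 genes was 0.193 (Txnrd1). With an unadjusted p below 0.05, the threshold passed by 12.6% of all genes, 3 of the 10 stood out (Txnrd1, Nqo1 and Cat). By DESeq2, Nqo1 and Txnrd1 had an adjusted p below 0.05 and were higher, as were 3.46% of all genes with an adjusted p, and none of the 10 was lower, as were 1.11% of genes. The tools thus differed for Nqo1 and Txnrd1.

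**Figure D1:**
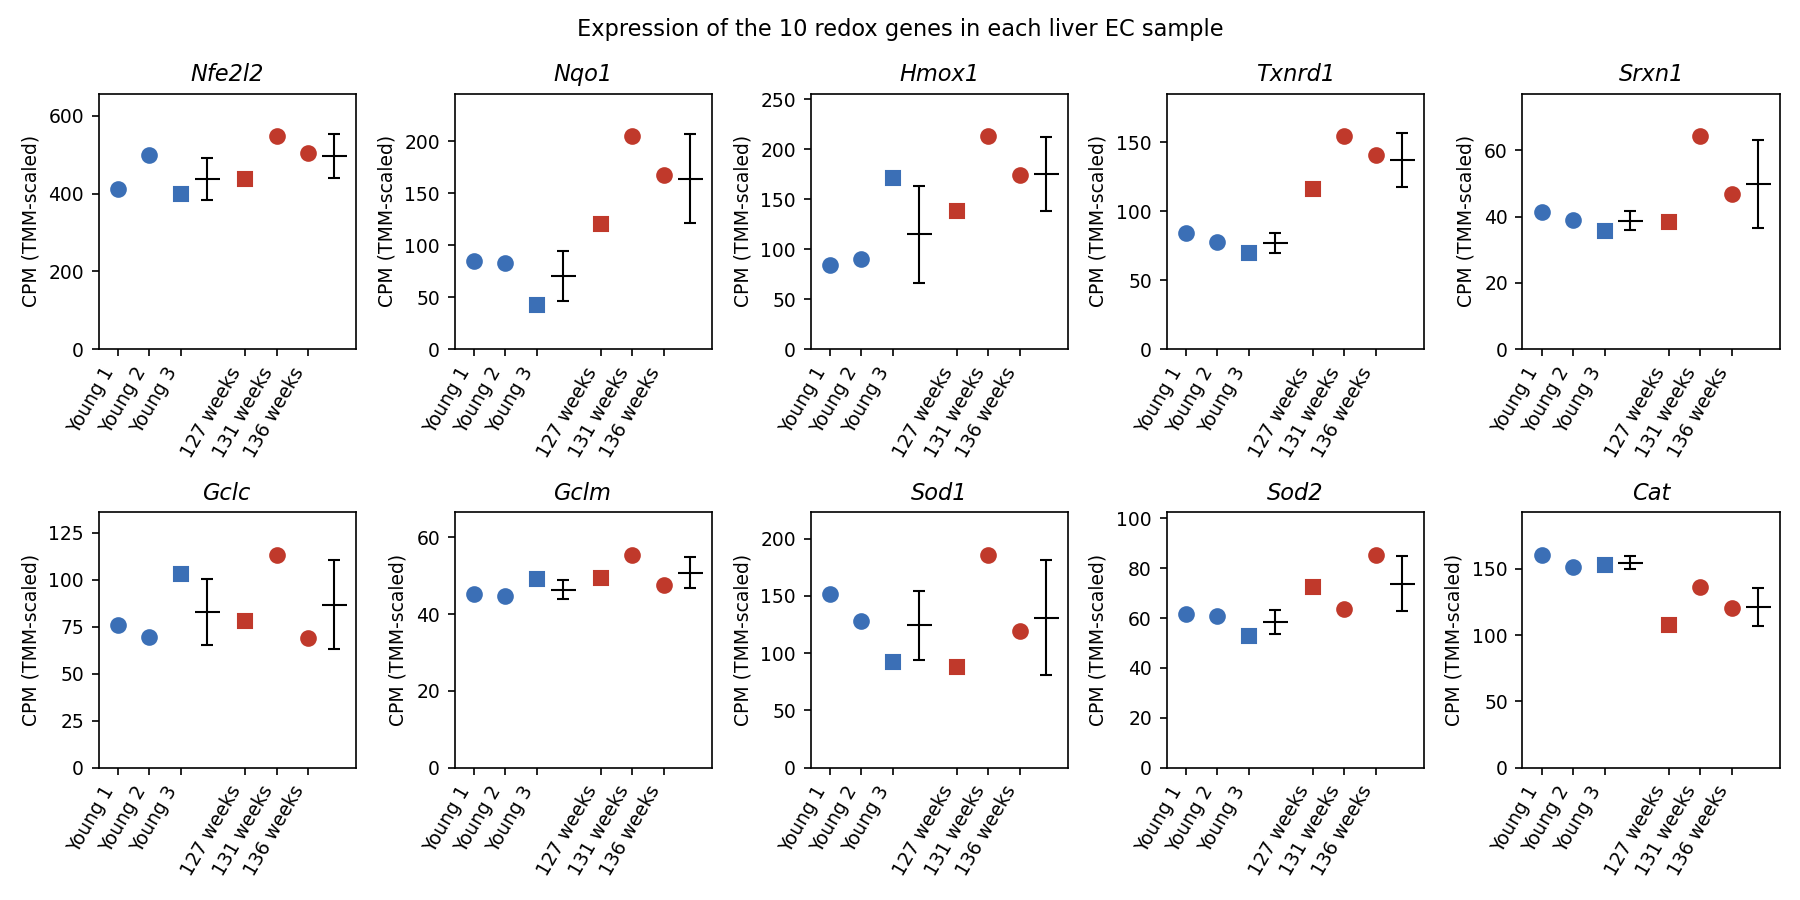
CPM (TMM-scaled, y axis from 0) of each of the 10 genes in the 3 young (blue) and 3 aged (red) samples, with squares for the libraries with few Lars2 and Rn45s counts and a black bar for the group mean ± SD (n = 3). Nqo1, Txnrd1 and Sod2 lie higher in all 3 aged samples than in all 3 young samples, and Cat lies lower. Nfe2l2, Hmox1, Srxn1, Gclc, Gclm and Sod1 overlap.

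Over the 10 genes, 9 had a higher and 1 a lower fitted level in aged ECs, where 51.1% of all tested genes had a log2 fold change above 0. The count of 9 fell to 7 without the 131-week sample. It fell to 8 without young replicate 2, without young replicate 3 or by limma-voom with sample quality weights. The median log2 fold change of the 10 genes was 0.26, against 0.01 over all genes tested, and 0.12 without the 131-week sample. Neither the count nor the median was tested, since the genes were chosen with earlier results known. Samples did not overlap between the ages for 3 genes that were higher (Nqo1, Txnrd1 and Sod2) and 1 that was lower (Cat), where 9.62% of all genes were higher and 8.33% lower without overlap. The median of the 10 genes, taken per sample as the log2 difference from the young mean, was 0.06, 0.02 and -0.12 in the young samples and 0.05, 0.54 and 0.24 at 127, 131 and 136 weeks. The 127-week sample thus lay among the young samples by this median, and the 131-week sample was the highest.

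Nfe2l2 (ENSMUSG00000015839, mm9 chromosome 2, 75513570 to 75542698, minus strand) encodes NRF2. Its CPM was 413, 499 and 399 in young ECs and 437, 548 and 505 at 127, 131 and 136 weeks. The ages overlapped, because young replicate 2 lay above the 127-week sample, but not when counts were scaled by library totals in place of TMM. The means were 437 ± 54.1 and 497 ± 56.1 CPM (SD, n = 3), a log2 fold change of 0.18 (SE 0.17, 95% interval -0.21 to 0.58) with an edgeR adjusted p of 0.720. The difference was 0.21 and 0.13 within the library clusters. The genes most like Nfe2l2 over the 6 samples, by Pearson's r of log2(CPM + 1) among 8912 genes with a mean of at least 10 CPM, were Zfp622 (0.98), Ctdspl2 (0.95), Fndc1 (0.95), Senp5 (0.95) and Gstt2 (0.94). With 6 samples, this many candidates and libraries that also share age and composition, these values describe likeness in these samples and no more.

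Nqo1 (chromosome 8, 109912125 to 109927106, minus strand) encodes the quinone reductase that is often read as a gauge of NRF2 activity. Its CPM was 85.1, 83.2 and 42.7 in young ECs and 120, 205 and 168 at 127, 131 and 136 weeks. Each aged sample was above each young sample, and the lowest value was that of young replicate 3. The means were 70.3 ± 23.9 and 164 ± 42.6 CPM (SD, n = 3), the largest difference of the 10 genes, with a log2 fold change of 1.22 (SE 0.31, 95% interval 0.50 to 1.95). Its edgeR p was 0.00504 and its adjusted p 0.243, while DESeq2 gave an adjusted p of 0.0120 at the same fold change. Within the library clusters the difference was 1.14 and 1.49, and it ran from 0.97 (without young replicate 3) to 1.41 (without the 127-week sample) when each mouse was left out in turn.

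Txnrd1 (chromosome 10, 82296696 to 82360469, plus strand) encodes the cytosolic thioredoxin reductase, a selenoprotein that uses NADPH to reduce thioredoxin. Its CPM was 83.9, 78.0 and 69.4 in young ECs and 116, 154 and 141 at 127, 131 and 136 weeks. The young samples lay close together and all aged samples lay above them, in the same order of the 6 samples as for Nqo1. The means were 77.1 ± 7.32 and 137 ± 19.5 CPM (SD, n = 3), with a log2 fold change of 0.83 (SE 0.16, 95% interval 0.46 to 1.20). Txnrd1 had the smallest p of the 10 genes, 0.00107 by edgeR (adjusted p 0.193), and an adjusted p of 0.00167 by DESeq2. The difference was 0.86 and 0.74 within the library clusters and 0.73 to 0.94 with each mouse left out. The 131-week sample had the highest Nqo1 and Txnrd1 values, and its pan-leukocyte sum lay within the young range. Its summed CPM of 9 Kupffer cell and macrophage markers lay below that of each young sample (48.4 to 93.3). This Kupffer cell and macrophage sum was 201 at 127 weeks and 487 at 136 weeks, above each young sample, as was the pan-leukocyte sum. For 6 stellate and mural cell markers, the sum was 106 to 372 in young and 182 to 638 in aged samples. The summed CPM of 3 cholangiocyte markers was 5.90 to 21.1 in young and 16.4 to 21.6 in aged samples. The part of RNA from other cell types in the Nqo1 and Txnrd1 values was not tested.

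**Figure D2:**
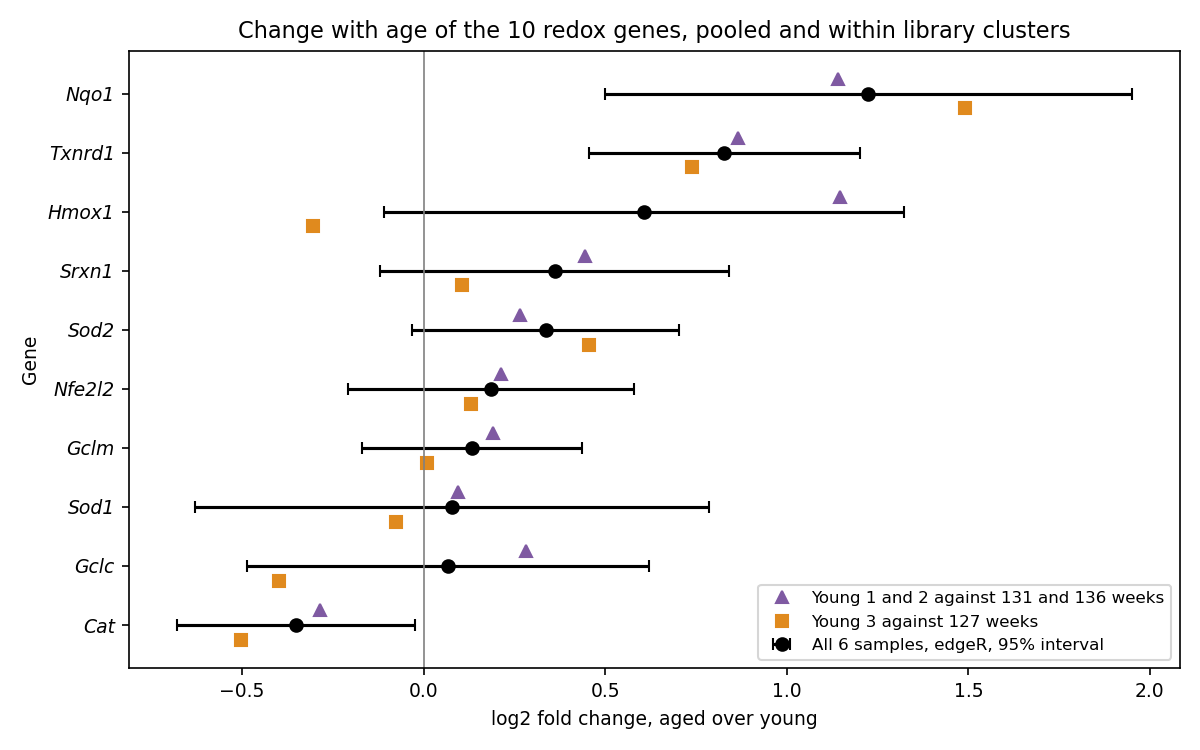
Log2 fold change of aged over young ECs (x axis) for each gene (y axis), from edgeR over all 6 samples with its 95% interval (black), and the log2 difference within young replicates 1 and 2 against 131 and 136 weeks (triangles) and within young replicate 3 against 127 weeks (squares). Hmox1, Gclc and Sod1 have values on both sides of 0, while for each other gene all 3 values lie on the same side.

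Hmox1 (chromosome 8, 77617490 to 77624495, plus strand) encodes haem oxygenase 1, which opens the haem ring to biliverdin, iron and carbon monoxide. Its CPM was 83.9, 90.3 and 170.9 in young ECs and 138, 213 and 174 in aged ECs. Young replicate 3 was higher than the 127-week sample and almost at the level of the 136-week sample, so the ages overlapped. The means were 115 ± 48.5 and 175 ± 37.4 CPM (SD, n = 3), a log2 fold change of 0.61 (SE 0.31, 95% interval -0.11 to 1.32) with an edgeR adjusted p of 0.471. The difference did not hold within the library clusters, where it was 1.15 in 1 and -0.31 in the other. It was 1.01 without young replicate 3 and 0.42 without young replicate 1.

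Srxn1 (chromosome 2, 151931252 to 151937112, plus strand) encodes sulfiredoxin, which repairs overoxidized peroxiredoxins. Its CPM was 41.5, 39.1 and 35.7 in young ECs and 38.4, 64.2 and 46.7 in aged ECs. Only the 131-week sample stood well above the others, and the 127-week sample lay within the young range. The log2 fold change was 0.36 (SE 0.21, 95% interval -0.12 to 0.84) with an edgeR adjusted p of 0.527, and it was 0.13 without the 131-week sample and 0.52 without the 127-week sample. Within the library clusters the difference was 0.44 and 0.11.

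Gclc and Gclm encode the catalytic and modifier subunits of glutamate-cysteine ligase, the rate-limiting enzyme of glutathione synthesis. The CPM of Gclc (chromosome 9, 77602342 to 77642292, plus strand) was 75.8, 69.7 and 102.8 in young ECs and 77.9, 113 and 68.8 in aged ECs. The highest and the lowest value were both those of aged samples. The log2 fold change was 0.07 (SE 0.24, 95% interval -0.49 to 0.62, edgeR adjusted p 0.948), with 0.28 in the first library cluster and -0.40 in the second. The CPM of Gclm (chromosome 3, 121948475 to 121972902, plus strand) was 45.2, 44.7 and 49.1 in young ECs and 49.4, 55.5 and 47.5 in aged ECs. Gclm was the least variable of the NRF2 targets, with a log2 fold change of 0.13 (SE 0.13, 95% interval -0.17 to 0.44) and an edgeR adjusted p of 0.738, and differences of 0.19 and 0.0087 within the library clusters. The interval of Gclm left out a doubling or halving with age, as did that of Gclc. Gclm overlaps Gm17494 on the minus strand in the mm9 annotation, and since the use of strand in counting is not stated, reads of the pair cannot be told apart. The ratio of Gclm to Gclc, as FPKM, was 1.03, 1.11 and 0.835 in young and 1.13, 0.832 and 1.19 in aged samples, a log2 difference of 0.08 (two-sided exact permutation test, p = 0.6, where the smallest p for 3 mice against 3 is 0.1).

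Sod1 (chromosome 16, 90220987 to 90226567, plus strand) had a CPM of 152, 128 and 92.7 in young ECs and 87.9, 186 and 119 in aged ECs. It varied more between mice of 1 age than between the ages, and the lowest value of each age came from the library with a low share of Lars2 and Rn45s. Sod1 had a log2 fold change of 0.08 (SE 0.30, 95% interval -0.63 to 0.78, edgeR adjusted p 0.952), and it turned to -0.26 without the 131-week sample. Within the library clusters the difference was 0.09 and -0.08. Sod2 (chromosome 17, 13200705 to 13210985, plus strand) had a CPM of 61.5, 61.0 and 53.0 in young ECs and 72.5, 63.5 and 85.5 in aged ECs. The ages did not overlap, but the 131-week sample was only slightly above young replicate 1. The log2 fold change was 0.34 (SE 0.16, 95% interval -0.03 to 0.70) with an edgeR p of 0.0673 and an adjusted p of 0.435, and differences of 0.27 and 0.45 within the library clusters. The ratio of Sod2 to Sod1, as FPKM, was 0.0498, 0.0580 and 0.0698 in young and 0.101, 0.0415 and 0.0883 in aged samples, a log2 difference of 0.29 (two-sided exact permutation test, p = 0.5). This difference rested on single aged mice, being 0.045 without the 127-week sample, 0.14 without the 136-week sample and 0.69 without the 131-week sample, and it was 0.17 without young replicate 1.

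Cat (chromosome 2, 103294006 to 103325317, minus strand) was the gene of the 10 whose fitted level was lower in aged ECs. Its CPM was 161, 151 and 152 in young ECs and 107, 136 and 120 at 127, 131 and 136 weeks. The young samples were close together and all aged samples lay below them. The means were 155 ± 5.20 and 121 ± 14.3 CPM (SD, n = 3), a log2 fold change of -0.35 (SE 0.14, 95% interval -0.68 to -0.02) with an edgeR p of 0.0386 and an adjusted p of 0.371. Within the library clusters the difference was -0.28 and -0.50. The summed CPM of 11 hepatocyte markers was also lower in aged samples. It was 199, 140 and 216 in young replicates 1, 2 and 3 and 115, 102 and 96.0 at 127, 131 and 136 weeks. Within each age, the samples were not in the same order by this sum as by Cat. Albumin mRNA (Alb) was at 40.2 to 74.7 CPM in young and 36.5 to 45.7 CPM in aged samples. The endothelial marker sum given above was lower in aged samples too. The part of hepatocyte RNA or of the endothelial differences in the Cat values was not tested.

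Levels between genes were compared as FPKM, which is scaled by transcript length. In young ECs Sod1 (270 ± 62.6 FPKM, SD, n = 3) and Nfe2l2 (187 ± 21.9) were the most abundant, and their ranges overlapped. Hmox1 (81.5 ± 35.7) and Cat (64.0 ± 1.93) followed, with ranges that also overlapped, and Nqo1 (50.2 ± 16.6) came next. Gclc (24.5 ± 5.18), Gclm (23.7 ± 1.40) and Txnrd1 (22.9 ± 2.14) stood at about the same level, with overlap between neighbours. Sod2 (15.6 ± 1.17) and Srxn1 (14.4 ± 0.939) were the lowest and overlapped as well. In aged ECs the first 3 and the last 2 genes kept their places, while Nqo1 (117 ± 29.3 FPKM) stood above Cat (49.9 ± 5.51) and Txnrd1 (40.8 ± 6.22) above Gclm (25.8 ± 1.96) and Gclc (25.4 ± 7.18). The aged ranges of Nqo1 and Cat did not overlap, nor did those of Txnrd1 and Gclm, while those of Hmox1 and Nqo1 and of Cat and Txnrd1 did.

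**Figure D3:**
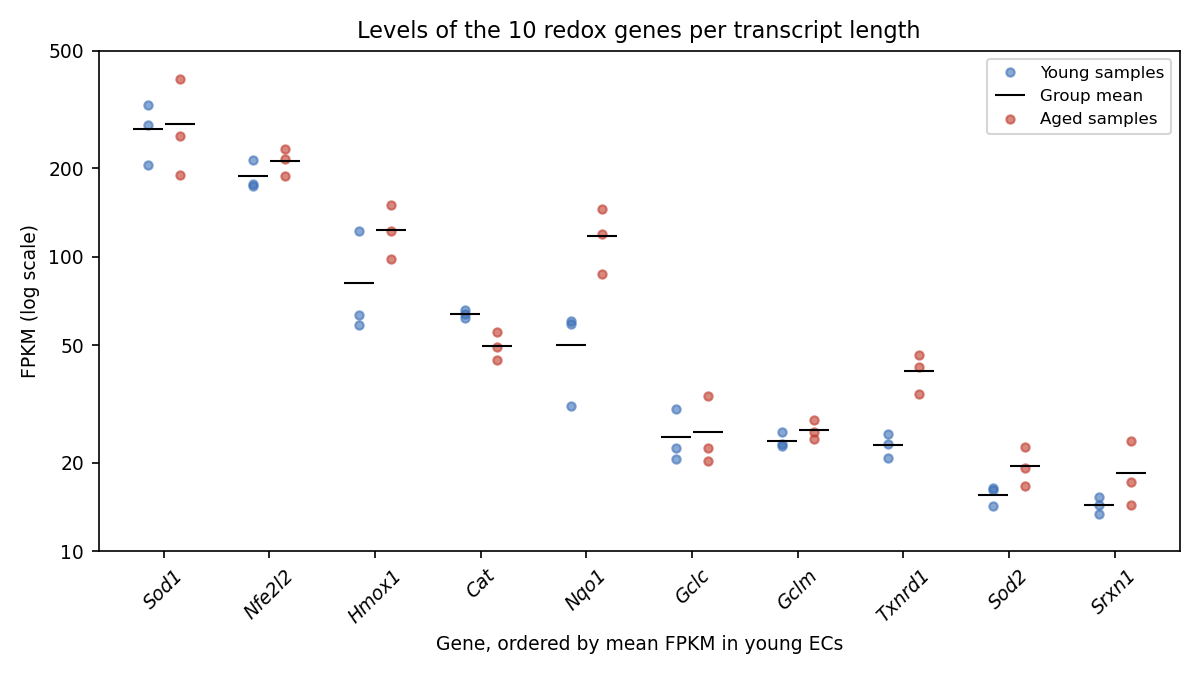
FPKM (log axis) of the 10 genes, ordered by their mean in young ECs, with 1 point per sample for young (blue) and aged (red) mice and a black line for each group mean. Sod1 and Nfe2l2 are the highest at both ages, and Nqo1 passes Cat in aged ECs.

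The rest of the pathway was followed in 7 lists of redox genes. No gene of any list was called by edgeR, and the counts below are of unadjusted p values below 0.05 (12.6% of all genes in both directions together). Among 26 genes of glutathione enzymes and transport, 5 were higher and 1 lower at that threshold, and the median log2 fold change was 0.22. Without overlap, 5 were higher and 1 lower, where 9.62% of all genes were higher and 8.33% lower. Each other list, of 9 to 19 tested genes, had 0 to 3 higher and 0 to 3 lower without overlap. Gstm1, which conjugates glutathione to electrophiles, was 264, 219 and 180 CPM in young and 398, 438 and 369 CPM in aged samples (log2 fold change 0.86, edgeR adjusted p 0.209, DESeq2 adjusted p 0.00233). Mgst1, the membrane-bound form, was 94.1, 93.3 and 76.2 CPM in young and 132, 191 and 153 CPM in aged samples (0.85, edgeR adjusted p 0.209, DESeq2 adjusted p 0.00540). Gstt1 was 4.48 to 9.27 CPM in young and 14.8 to 18.8 CPM in aged samples (1.18, edgeR adjusted p 0.249, DESeq2 adjusted p 0.0190). Slc7a11, the cystine transporter that feeds glutathione synthesis, was near the floor, with 0, 2 and 0 counts in young and 10, 1 and 43 counts in aged samples, and is named after its values were seen.

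Among 14 tested genes of quinone, carbonyl and epoxide detoxification, 2 were higher and 2 lower at an unadjusted p below 0.05, with a median log2 fold change of 0.12. Ephx1, the microsomal epoxide hydrolase, was 120, 116 and 101 CPM in young and 159, 180 and 186 CPM in aged samples (log2 fold change 0.64, edgeR adjusted p 0.227, DESeq2 adjusted p 0.00646). Nqo2, the paralog of Nqo1, went the other way, with 210, 199 and 232 CPM in young and 61.96, 144 and 53.5 CPM in aged samples (-1.30, edgeR adjusted p 0.257, DESeq2 adjusted p 0.0182). Osgin1, an oxidative stress-induced growth inhibitor, was 50.2 to 91.8 CPM in young and 111 to 125 CPM in aged samples (0.82, edgeR adjusted p 0.265). All 3 genes were without overlap between the ages, and 2 genes of the list, in place of 4, passed the threshold without both libraries with few Lars2 and Rn45s counts. Of 9 genes of NADPH supply, which fuels NQO1, TXNRD1 and glutathione reductase, 2 were higher at an unadjusted p below 0.05 and none lower, with a median of 0.11. Me1, malic enzyme, was 9.41, 8.93 and 4.67 CPM in young and 17.7, 16.3 and 29.4 CPM in aged samples (1.46, edgeR adjusted p 0.235, DESeq2 adjusted p 0.00792), and G6pdx, the entry enzyme of the pentose phosphate pathway, had a log2 fold change of 0.52 (edgeR adjusted p 0.289). Tkt, transketolase, had 0.34 (0.463) and overlapped.

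**Figure D4:**
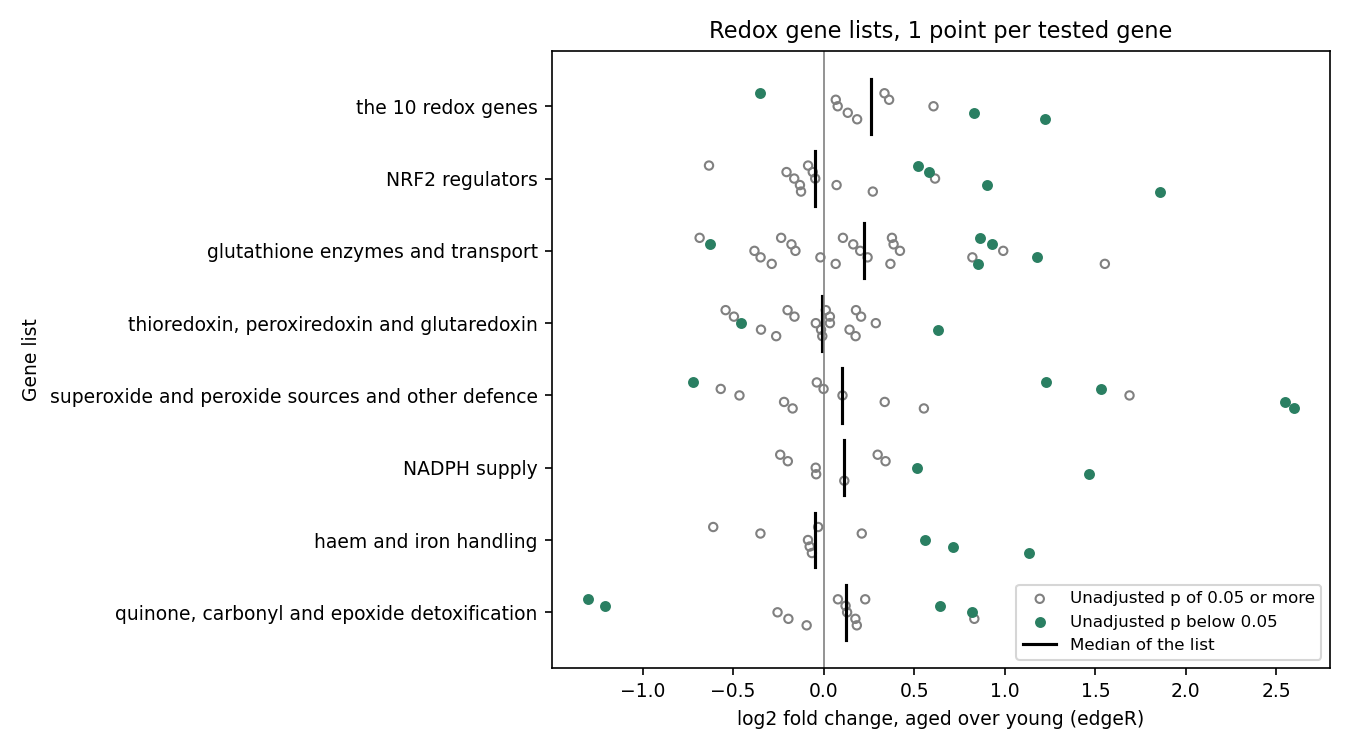
Log2 fold change of aged over young ECs (x axis) for each tested gene of the 10 redox genes and of 7 pathway lists (y axis), with filled points for an unadjusted p below 0.05 and a black line for the median. Slc7a11 is left out of the picture because its counts are near the floor. The lists spread on both sides of 0, with the glutathione list at a median of 0.22 and the thioredoxin list at -0.01.

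The regulators of NRF2 had no common direction. Of 15 genes, 7 were higher and 8 lower by the fitted level, with a median log2 fold change of -0.05, and 4 had an unadjusted p below 0.05, all higher. Maff and Mafk, small MAF partners of NRF2, had log2 fold changes of 1.86 and 0.90 (edgeR adjusted p 0.250 and 0.332, DESeq2 adjusted p 0.00961 and 0.104), and the 136-week sample was the highest for both, with 31.0 CPM of Maff against 4.16 to 5.01 in young samples. Bach1, a repressor at the same elements, had 0.58 (0.353). Keap1, named after its values were seen, was 93.2, 94.0 and 106 CPM in young and 100.1, 82.4 and 71.5 CPM in aged samples, a log2 fold change of -0.21 (edgeR adjusted p 0.664). The count of 4 fell to 1 without young replicate 1, without young replicate 2 or without the 136-week sample, and to 2 without the 127-week sample. All 12 markers of the dissociation stress response also had a log2 fold change above 0, from 0.05 (Hspa1a) to 1.33 (Atf3). Their summed CPM was 17062 to 20772 in young and 21646 to 30023 in aged samples. At 127 weeks, Hspa1a (316 CPM) and Hspa1b (344 CPM) lay below each young sample (860 to 1196 and 1008 to 1105 CPM). The part of this response in the values of the regulators was not tested.

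The thioredoxin, peroxiredoxin and glutaredoxin list, with 19 genes, had 1 gene higher and 1 lower at an unadjusted p below 0.05 and a median log2 fold change of -0.01. Txnrd3, a thioredoxin reductase paralog, had 0.63 (edgeR adjusted p 0.346), Sesn1 had -0.46 (0.386) and Txnip, the thioredoxin inhibitor, had -0.54 (0.478), with 593 CPM in the 136-week sample against 1327 to 1472 in young samples. Of these 2 genes at the threshold, none was left without young replicate 1 or without the 127-week sample, and 1 without young replicate 2 or the 136-week sample. Of 10 genes of haem and iron handling, 3 were higher at that threshold (Abcb6 0.56, Tfrc 1.13 and Fth1 0.71, with edgeR adjusted p of 0.370, 0.378 and 0.393), and the median was -0.05. Fth1, the ferritin heavy chain, was 827 to 1357 CPM in young and 1510 to 2647 CPM in aged samples. No gene of the list had an unadjusted p below 0.05 without young replicate 1, without young replicate 2 or without the 136-week sample, and 1 had without young replicate 3.

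Of 15 tested genes that make superoxide or peroxide or bear on it, 4 were higher and 1 lower at an unadjusted p below 0.05, with a median log2 fold change of 0.10. Ucp2, a carrier of the mitochondrial inner membrane, was lower without overlap, at 248, 294 and 335 CPM in young and 144, 190 and 198 CPM in aged samples (-0.72, edgeR adjusted p 0.250, DESeq2 adjusted p 0.0218). Nox4, an oxidase that is constitutively active, had 1.53 (edgeR adjusted p 0.369) and overlapped between the ages. Ncf4 and Cybb, subunits of the phagocyte NADPH oxidase that are named after their values were seen, were also higher at this threshold. Cybb was 4.06, 4.11 and 3.60 CPM in young and 9.35, 1.59 and 57.98 CPM at 127, 131 and 136 weeks. Ncf4 was low, at 0.37, 0.27 and 0.32 CPM in young and 1.48, 0.117 and 4.30 CPM in aged samples. Its value at 131 weeks was near the floor of 3 counts. Among aged samples Cybb and Ncf4 followed the order of the pan-leukocyte sum given above. The count of 5 genes fell to 1 without the 136-week sample, without young replicate 1 or without both libraries with few Lars2 and Rn45s counts, to 2 without the 127-week sample or young replicate 3, and to 3 without young replicate 2. The part of leukocyte RNA in these values was not tested.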

How the data were processed

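RNA was extracted from sorted liver ECs, and libraries (TruSeq) were read as single-end 75-base reads. Per the labels and the study's methods, the authors called bases with CASAVA (1.8.2), mapped reads to mm9 with TopHat2 (2.1.0) and deposited raw read counts per gene symbol and FPKM values from Cuffnorm (2.2.1), which scales between samples. The counting program, its annotation and its use of strand are not given in the sources used here. Counts were used as deposited.

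Genes with at least 0.5 CPM in at least 1 sample (14612 of 24421) were normalized by TMM (factors 0.964 to 1.11) and tested over all genes with the quasi-likelihood test of edgeR (4.0.16, R 4.3.3) with Benjamini-Hochberg adjustment. SE is the log2 fold change over the square root of F. DESeq2 (1.42.0) and limma (3.58.1) served as alternatives, with pseudocounts of 0.1 and 1 on log2 FPKM, as did other scalings, other filters and the removal of each mouse. CPM of 3 counts was the floor, which covers counting error only.

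The 10 genes and the lists were chosen with earlier results of these data known. Named are the 10 genes, the 3 genes of each list with the smallest p, the 5 genes most like Nfe2l2, Lars2, Rn45s and marker genes. A gene that this rule names is not reported here. Of the listed genes, Nox1, Nox3 and Akr1b3 were too low to test, and Flvcr1 and Tf were not used here. Samples of a group differed beyond sampling noise (chi-square per degree of freedom 20.2 to 186), and p-values set the age difference against this spread. The spread also holds the split of libraries by Lars2 and Rn45s and, in the aged group, differences in age between the mice. Gene positions come from GENCODE vM1 (mm9).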

Additional observations from a re-analysis of the deposited data

How the results depend on the processing

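Genes called numbered 0 in the edgeR test, 474 by DESeq2 (1 of them, Nqo1, among the 10 genes), 4 with no filter on low counts, 15 by limma-voom with sample quality weights and 2 with a term for the share of Lars2 and Rn45s. When single mice were removed the number lay between 0 and 1, the latter without the 131-week sample. Over the 19 alternatives run for single genes, Nfe2l2, Hmox1, Nqo1, Gclm, Txnrd1, Srxn1, Sod2 and Cat kept their direction. Adjusted p ran from 0.0120 to 0.625 for Nqo1, from 0.00167 to 0.625 for Txnrd1 and from 0.200 to 0.701 for Cat, and DESeq2 was the only alternative that brought any of the 10 genes below 0.05. Sod1 turned to -0.12 by limma-voom and lay between -0.26 and 0.30 with each mouse left out, Gclc between -0.17 and 0.25, and the log2 difference of the ratio of Gclm to Gclc between -0.038 and 0.24, and that of Sod2 to Sod1 between 0.045 and 0.69. The genes without overlap numbered 4 of 10, and 4 to 7 with each mouse left out, where 23.2% to 34.5% of all genes did not overlap. Without both libraries with few Lars2 and Rn45s counts, a choice made after seeing the data like the counts without overlap and the list counts with mice left out, 8 of 10 did not overlap, beside 45.4% of all genes. With library totals in place of TMM, 6 of 10 did not overlap (Nfe2l2 and Srxn1 in addition) and the median of all genes moved to 0.07. No paired analysis was made, because the young and aged samples came from different mice and the labels link no young mouse to an aged one. The causes of these changes were not tested. With 3 mice per age, the width of the intervals limits what can be said of the smaller differences.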
